A study of Mus musculus with 7 samples.

Results

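The comparison described here sets LSK CD150+CD48+ cells against common myeloid progenitors (CMPs) of the bone marrow of pMT-10 mice, with 2 libraries of each population, 4 of the 7 libraries of the series. The members were taken by their labels: both populations came from the same strain and were sequenced on the same chip. The pMT-10 mouse carries an Il10 transgene under a zinc-inducible metallothionein promoter, so that interleukin-10 is overproduced when zinc is given, and every mouse of the series had drunk zinc for 15 days. LSK CD150+CD48+ cells were sorted as lineage-negative, SCA-1-positive and c-KIT-positive cells carrying CD150 and CD48, and the gate of the CMP sort is not given in the sources used here. The other 3 libraries, 1 of haematopoietic stem cells (HSC) of pMT-10 mice and 2 of CMPs of C57BL/6 mice (BL/6), both also under zinc, were on a second chip; their levels are given beside the comparison, and the BL/6 pair also enters the estimate of spread behind every p-value. No pMT-10 mouse without zinc and no C57BL/6 LSK library is among the samples, so every value below holds for cells under zinc and, in the 4 libraries compared, for the transgenic strain.

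The LSK compartment holds the stem cells and multipotent progenitors of the marrow, and within it the CD150+CD48+ cells are a progenitor fraction known for a leaning toward megakaryocyte and erythroid output. CMPs lie further along: they have lost SCA-1 and feed the granulocyte, monocyte, red cell and megakaryocyte branches. Commitment to the granulocyte and monocyte branches runs through the transcription factors PU.1 (Spi1), C/EBPα (Cebpa), IRF8 and GFI1, and the azurophil granule proteases are among the earliest products of that branch. The erythroid and megakaryocyte branches run through GATA2, GATA1, FOG1 (Zfpm1) and KLF1.

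The assay reads 1 short amplicon for each gene, and levels are given as CPM, the count divided by the TMM-scaled library total on a common scale. Totals were 8807636 and 13854314 counts for LSK CD150+CD48+ replicates 1 and 2, and 8948534 and 8467014 counts for CMP replicates 1 and 2. Across genes, the SD of the log2 difference within a pair was 0.821 for the CMPs and 0.473 for LSK CD150+CD48+. It was 0.384 for the BL/6 CMP pair, the smallest of these, and that pair also sets the spread of the test. Xist, the RNA of the inactive X chromosome, was at 284 and 0.144 CPM in the LSK CD150+CD48+ libraries and at 1314 and 943 CPM in the CMPs. Ddx3y, a Y-linked gene, was at 42.6 and 74.8 CPM in the LSK CD150+CD48+ libraries and 21.7 and 37.1 CPM in the CMPs, and both BL/6 libraries had 0 counts of it. Kdm5d, also Y-linked, was higher in the LSK CD150+CD48+ cells (8.30 and 12.9 against 2.32 and 3.82 CPM, log2 fold change 1.79 ± 0.43, adjusted p = 0.0351). This call was lost in a fit of the 4 compared libraries alone. For X- and Y-linked genes, and for any other gene that differs by sex, the sex of the cells in a library and the population cannot be told apart. Leaving out X- and Y-linked genes gave 660 genes higher and 651 lower, against 677 and 677 with them. This does not remove other genes that may differ by sex. No label names the animals behind a library, so every p-value rests on the spread between these samples alone, and that spread may be technical.

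A set of promoters is printed first because results below turn on their genes: the granule genes that were low in LSK CD150+CD48+ cells and the MHC class II genes that were high in them. Sequences are the 250 bases before the RefSeq transcription start in build GRCm38.p6, read 5′ to 3′ on the strand of the gene. Capitals mark GAGGAA, a core recognised by PU.1 and other ETS factors, in the 4 granule genes, and GATTGG, the Y box bound by NF-Y, in the MHC class II genes, on either strand.
Prtn3 (chr10:79879417-79879666, plus strand): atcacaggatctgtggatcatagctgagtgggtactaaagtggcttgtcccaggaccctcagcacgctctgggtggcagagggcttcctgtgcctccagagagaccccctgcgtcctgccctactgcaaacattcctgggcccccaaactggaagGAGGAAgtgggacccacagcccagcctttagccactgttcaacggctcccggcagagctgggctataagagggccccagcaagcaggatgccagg
Elane (chr10:79886062-79886311, plus strand): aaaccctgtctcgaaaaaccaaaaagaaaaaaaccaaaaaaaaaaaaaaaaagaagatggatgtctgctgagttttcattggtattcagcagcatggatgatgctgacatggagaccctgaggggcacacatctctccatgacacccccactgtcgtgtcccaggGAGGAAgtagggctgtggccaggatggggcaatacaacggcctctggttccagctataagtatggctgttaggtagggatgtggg
Mpo (chr11:87793534-87793783, plus strand): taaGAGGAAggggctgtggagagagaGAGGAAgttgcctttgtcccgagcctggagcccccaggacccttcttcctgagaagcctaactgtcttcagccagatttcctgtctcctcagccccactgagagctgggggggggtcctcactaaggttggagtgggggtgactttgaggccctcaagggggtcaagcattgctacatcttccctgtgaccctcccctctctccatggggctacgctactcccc
Ctsg (chr14:56102575-56102824, minus strand): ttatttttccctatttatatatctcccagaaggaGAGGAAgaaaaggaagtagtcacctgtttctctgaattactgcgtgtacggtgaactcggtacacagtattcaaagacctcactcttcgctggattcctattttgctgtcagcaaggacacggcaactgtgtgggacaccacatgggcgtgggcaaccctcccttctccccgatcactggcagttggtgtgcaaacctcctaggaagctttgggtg
H2-Aa (chr17:34287824-34288073, minus strand): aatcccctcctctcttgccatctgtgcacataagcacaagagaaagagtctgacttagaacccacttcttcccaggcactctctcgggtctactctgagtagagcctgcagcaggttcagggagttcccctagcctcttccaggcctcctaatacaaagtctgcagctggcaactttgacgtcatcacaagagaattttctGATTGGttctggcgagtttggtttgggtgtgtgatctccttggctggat
H2-Eb1 (chr17:34305617-34305866, plus strand): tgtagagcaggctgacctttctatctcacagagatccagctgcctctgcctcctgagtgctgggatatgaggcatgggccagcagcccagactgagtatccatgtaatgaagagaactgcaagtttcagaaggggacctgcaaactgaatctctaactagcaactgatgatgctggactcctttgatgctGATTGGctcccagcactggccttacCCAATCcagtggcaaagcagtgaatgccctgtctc
Prtn3 and Elane hold GAGGAA 95 and 85 bases before the start, Ctsg 216 bases before it, and Mpo 247 and 224 bases before it. H2-Aa holds GATTGG 49 bases before the start, and H2-Eb1 holds it 60 bases before the start and its reverse complement 35 bases before it. The marked matches do not overlap each other. Of the azurophil granule genes with a promoter entry, 9 of 14 held GAGGAA, against 23.3% of all 32851 entries of the same length. GATTGG stood in 10 of 10 MHC class II genes, against 14.6% of all entries. The C/EBP sequence TTGCNNAA was in 0 of 14 and 0 of 10 of these genes (9.56% of all entries), and the GATA sequence AGATAA in 0 of 14 and 2 of 10 (9.99%). A gene was counted if any of its entries held the sequence, while the shares of all entries count each entry singly. A gene with several entries has more chances of a match, so these shares are not like for like. These motifs were searched on both strands and describe letters only, not binding.

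Of 11429 genes tested with edgeR's quasi-likelihood test, 677 were higher and 677 lower in LSK CD150+CD48+ cells than in CMPs at an adjusted p under 0.05, which is 5.92% of genes in each direction and 11.8% in all. The counts of every gene list below are to be read against these 5.92%. An unadjusted p under 0.05 was reached by 30.6% of genes. At least 2-fold changes passed in 445 genes upward (3.89%) and 452 genes downward (3.95%). The values of the 2 populations did not overlap in 55.7% of genes, 27.8% with LSK CD150+CD48+ above and 27.9% with it below, so separation of 2 against 2 libraries alone is common here. The median log2 fold change of all genes was -0.01. Among called genes with 20 CPM or more in the higher population, the 12 largest decreases had no LSK CD150+CD48+ library above 10.1 CPM, while CMPs ranged from 17.2 to 462 CPM. The fit draws its spread on all 7 libraries. Genes whose call was lost in a fit of the 4 compared libraries alone are not all marked as such below. With the 4 libraries alone 595 genes passed (272 higher, 323 lower), 44 without LSK CD150+CD48+ replicate 1 and 96 without its replicate 2, but 4274 without CMP replicate 1 and 2705 without CMP replicate 2.

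**Figure D1:**
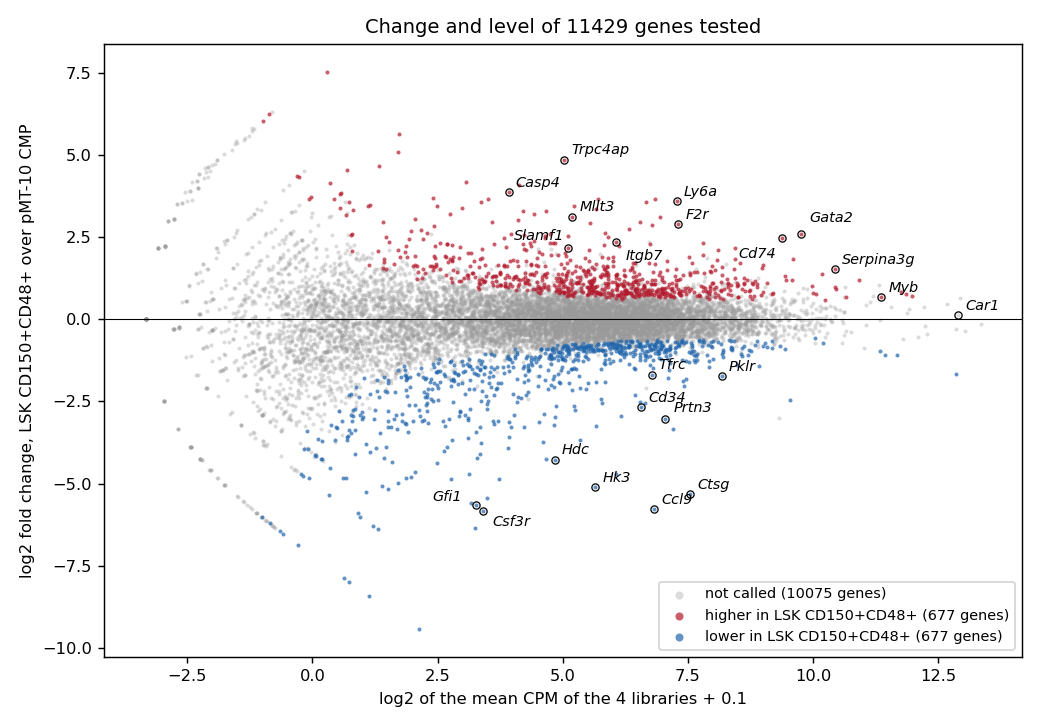
Log2 fold change of LSK CD150+CD48+ cells over pMT-10 CMPs (vertical axis) against the log2 of the mean CPM of the 4 libraries plus 0.1 (horizontal axis) for 11429 genes, with red and blue for the 677 genes called higher and the 677 called lower and circles for named genes. Ctsg and Ccl9 stand out among genes of high level by the size of their decrease, Car1 lies near 0, and the diagonal edges at low level are genes with 0 counts in 1 population, whose fitted fold depends on the prior count.

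The antigens of the sort were looked at first. Ly6a (chromosome 15, 74994877 to 74998031, build mm10), which encodes SCA-1, stood at 326 and 249 CPM in LSK CD150+CD48+ cells and 19.4 and 28.05 CPM in CMPs, a log2 fold change of 3.60 ± 0.48 (adjusted p = 0.00318). Slamf1, which encodes CD150, was at 53.3 and 59.9 against 12.8 and 12.1 CPM (2.19 ± 0.23, adjusted p = 0.00125). Both genes were high in both LSK CD150+CD48+ libraries, as the gate requires, and the CMP values did not reach them. Ly6a was also measurable in pMT-10 CMPs, whereas BL/6 CMPs had 0.0923 and 2.02 CPM. Kit, shared by both gates in common schemes, ranged over 81.2 and 118 CPM in LSK CD150+CD48+ cells and 95.3 and 140.1 CPM in CMPs, and the populations overlapped (-0.24 ± 0.24, adjusted p = 0.540). Cd48 likewise overlapped at 63.6 and 40.5 against 44.4 and 79.5 CPM, above the 6.49 CPM of the HSC library.

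Of 26 stem cell surface and niche genes tested 6 rose and 1 fell (median log2 fold change 0.27). Beside the sort antigens, those that rose included Tek, the angiopoietin receptor TIE2, the integrin chain Itga6 and the tetraspanin Cd9 (226 and 223 against 137 and 125 CPM). Tek stood at 30.4 and 23.1 against 9.27 and 12.4 CPM (1.30 ± 0.27). Calls of Tek, Itga6 and Cd9 were lost in the 4 libraries alone. Cd34 was the member that fell, from 120.2 and 207 CPM in CMPs to 21.4 and 29.9 CPM, 6.35-fold (-2.67 ± 0.29, adjusted p = 0.00127). The CMP gate is not given, so Cd34 may also encode a sort antigen, and a difference set by the gate cannot be told apart. In contrast Procr, which encodes the stem cell marker EPCR, had 0 and 10 counts in LSK CD150+CD48+ cells and 16 and 19 in CMPs against 38.5 CPM in HSC. Esam (9.70 and 9.72 against 4.08 and 7.88 CPM), Mecom (4.09 and 4.03 against 2.54 and 2.90 CPM) and Vwf (34.5 and 38.00 against 21.6 and 26.5 CPM) did not pass the test between the populations, and the HSC library had 88.7, 47.6 and 315 CPM. Hlf, a stem cell transcription factor, did not pass either (18.2 and 16.8 against 24.5 and 25.2 CPM, adjusted p = 0.168).

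Among 25 stem cell transcription factors tested 4 rose and 2 fell (median 0.12). Gata2 (chromosome 6, 88193891 to 88207032), needed for stem cell maintenance and for mast cell and megakaryocyte output, was at 1448 and 1512 CPM in LSK CD150+CD48+ cells and 316 and 176 CPM in CMPs, 6.02-fold higher (2.59 ± 0.27, adjusted p = 0.00118). Its LSK CD150+CD48+ values were also above the 257 CPM of HSC and the 763 and 732 CPM of BL/6 CMPs. Mllt3 (AF9), a chromatin reader tied to stem cell maintenance and megakaryocyte and erythroid fate, stood at 63.4 and 67.9 against 11.3 and 3.71 CPM (3.13 ± 0.45). Mycn was at 23.3 and 23.9 against 5.08 and 8.69 CPM (1.78 ± 0.30) and Hhex at 110.4 and 142 against 45.2 and 38.6 CPM (1.59 ± 0.20). Neither overlapped, and 27.8% of all genes tested likewise had LSK CD150+CD48+ above. Rora fell to 4 and 2 counts from 40 and 37 (-3.91 ± 0.71), and Ldb1, the bridging factor of GATA complexes, fell by 0.58 (adjusted p = 0.0490). The call of Ldb1 was lost in the 4 libraries alone. In the surface list the counts of higher and lower genes were 3 and 1 with the 4 libraries alone, 1 and 0 without LSK CD150+CD48+ replicate 1, 1 and 1 without replicate 2, 7 and 5 without CMP replicate 1 and 9 and 3 without CMP replicate 2. For the transcription factors they were 4 and 1 with the 4 libraries alone, 2 and 0 without LSK CD150+CD48+ replicate 1, 1 and 0 without replicate 2, 7 and 5 without CMP replicate 1 and 8 and 2 without CMP replicate 2.

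**Figure D2:**
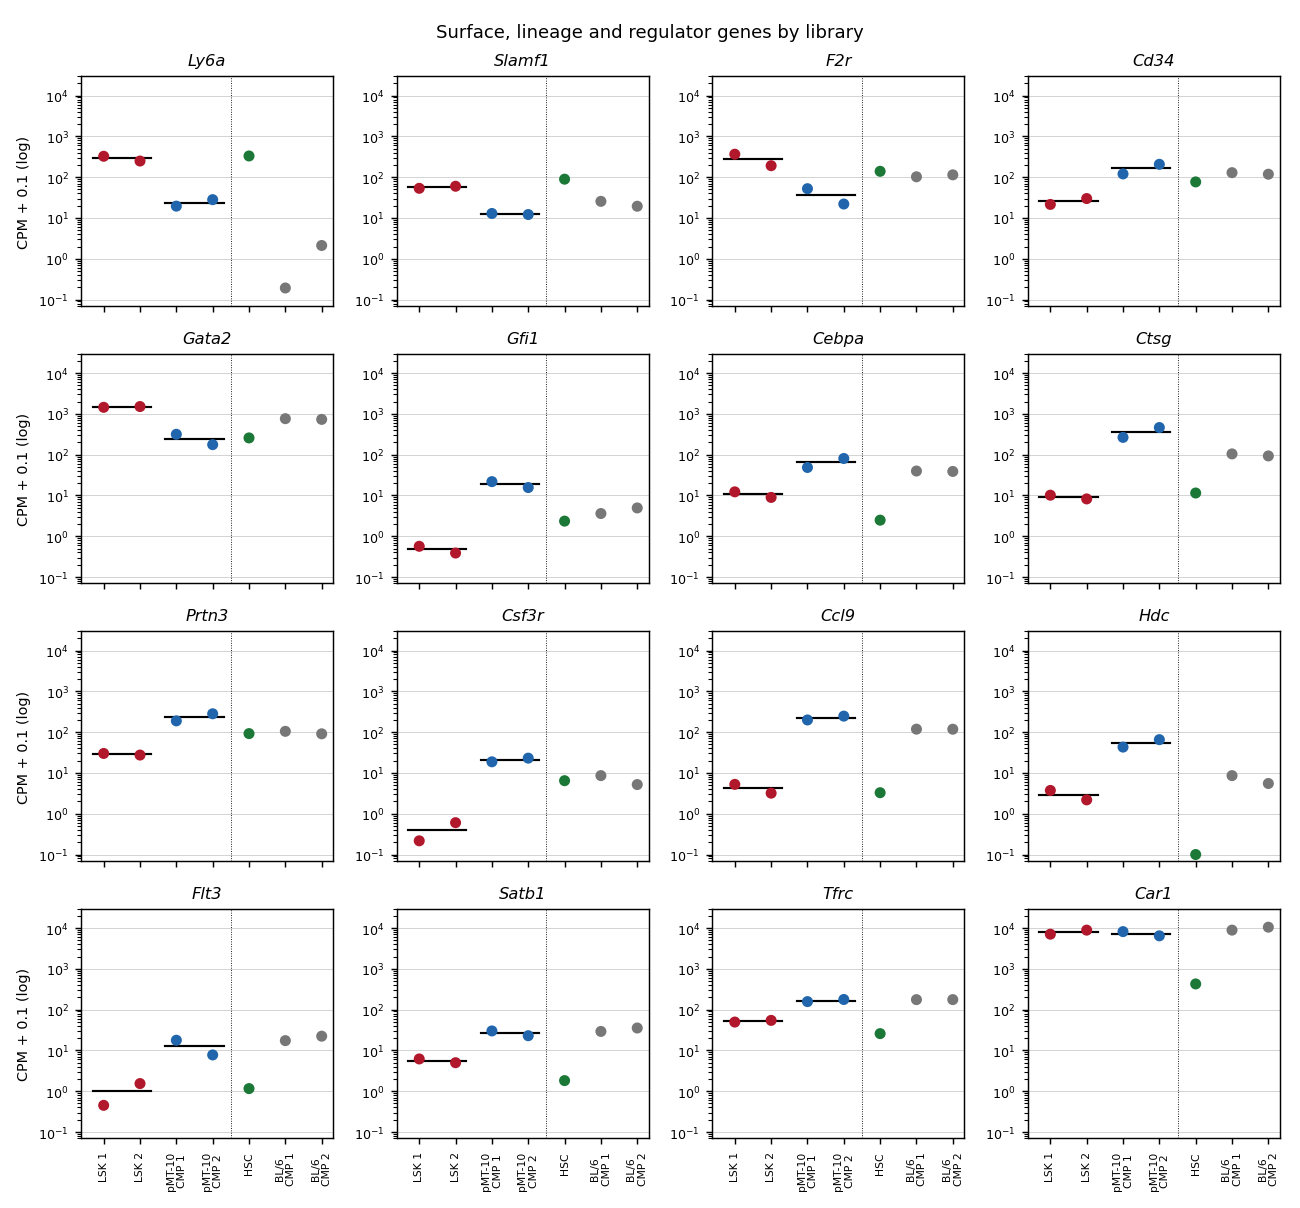
CPM plus 0.1 on a log axis in each of the 7 libraries for 16 surface, lineage and regulator genes, with red for the LSK CD150+CD48+ libraries (LSK 1 and LSK 2), blue for pMT-10 CMPs, green for HSC and grey for BL/6 CMPs. Short lines are the means of the 2 libraries of a compared population, and libraries right of the dotted line were on the second chip. Ly6a, Slamf1, F2r and Gata2 are higher in both LSK CD150+CD48+ libraries, Gfi1 to Tfrc are lower in both, and Car1 overlaps.

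Of 27 megakaryocyte and platelet genes tested 7 rose and 2 fell, and the median was 0.55. F2r, the thrombin receptor PAR1, was at 366 and 191 CPM in LSK CD150+CD48+ cells and 52.2 and 21.9 CPM in CMPs (2.91 ± 0.42, adjusted p = 0.00414). Treml1, a platelet granule receptor, was at 12.5 and 12.6 against 3.42 and 1.97 CPM (2.21 ± 0.33) and reached 38.4 CPM in HSC. Zfpm1, the GATA cofactor FOG1, stood at 1505 and 1183 against 727 and 836 CPM (0.78 ± 0.19), and Nfe2, a factor of platelet formation, at 542 and 577 against 363 and 326 CPM. Others that rose were Cd9, described above, and Mmrn1, a platelet adhesion protein, at 10.2 and 5.25 against 2.76 and 2.55 CPM (adjusted p = 0.0474). Of the products of mature platelets, Selp (P-selectin) fell from 51.1 and 45.1 to 14.7 and 10.9 CPM (-1.91 ± 0.25), and Ppbp, a platelet chemokine, was at 1.52 and 1.15 CPM against 2.76 and 13.6 CPM (adjusted p = 0.0415), with CMP replicate 2 carrying most of the difference. Pf4, at 99.4 and 109 against 132 and 225 CPM, did not pass (adjusted p = 0.0742), and the integrin Itga2b (CD41) overlapped at 527 and 435 against 374 and 549 CPM. Calls of Zfpm1, Nfe2, Cd9, Mmrn1 and Ppbp were lost in the 4 libraries alone. Megakaryocyte genes called higher and lower numbered 3 and 1 with the 4 libraries alone, 0 and 0 without LSK CD150+CD48+ replicate 1, 1 and 0 without replicate 2, 9 and 5 without CMP replicate 1 and 11 and 1 without CMP replicate 2.

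Of 28 erythroid genes tested 3 rose and 11 fell (median -0.28). Several of those that fell belong to the red cell membrane: Add2, a membrane skeleton protein, went from 282 and 269 CPM in CMPs to 55.5 and 78.9 CPM (-2.03 ± 0.22, adjusted p = 0.00125), and Rhag, the Rh-associated glycoprotein, from 197 and 228 to 52.3 and 71.7 CPM (-1.77 ± 0.21). The ankyrin gene Ank1 went from 275 and 253 to 100.4 and 112 CPM and the spectrin gene Sptb from 58.04 and 33.8 to 9.59 and 12.2 CPM. Tfrc, the transferrin receptor, stood at 49.4 and 54.3 against 157 and 177 CPM (-1.69 ± 0.18, adjusted p = 0.00125). It was close within each pair and without overlap, and 27.9% of all genes tested likewise had LSK CD150+CD48+ below. Hebp1, a haem-binding protein, was at 13.6 and 20.1 against 88.9 and 93.9 CPM (-2.43 ± 0.25). The other members that fell were Sphk1, Rhd, Epb42, Mgst3 and Blvrb, by 2.52, 1.92, 1.80, 1.25 and 0.84 on the log2 scale. The 3 that rose were Zfpm1, Samd14 (74.9 and 96.3 against 27.6 and 31.3 CPM, 1.54 ± 0.23), a cofactor of KIT signalling in erythroid precursors, and Ermap (88.7 and 116 against 29.8 and 6.26 CPM, 2.50 ± 0.54). Ermap had only 0.529 CPM in HSC, and its CMP replicates differed widely. Calls of Ermap, Zfpm1, Rhd, Epb42 and Blvrb were lost in the 4 libraries alone.

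While Gata2 and Zfpm1 rose, Gata1, Klf1, Epor and Car1 overlapped between the populations. The call of Zfpm1, unlike that of Gata2, was lost in the 4 libraries alone. Gata1 was at 211 and 316 CPM in LSK CD150+CD48+ cells and 179 and 262 CPM in CMPs (0.26 ± 0.25, adjusted p = 0.515), Klf1 at 42.6 and 47.7 against 36.4 and 53.5 CPM (0.01 ± 0.25) and the erythropoietin receptor gene Epor at 178 and 169 against 187 and 147 CPM (0.06 ± 0.19). Car1, a carbonic anhydrase of early erythroid cells, was at 7063 and 8873 CPM against 8164 and 6435 CPM (0.13 ± 0.20, adjusted p = 0.707) and at 426 CPM in HSC. Klf1 was at 2.91 CPM in HSC. None of these tests shows that the levels are equal. In the haem pathway, 5 of 24 iron and haem genes fell and 1 rose (median -0.18). The synthesis enzymes Ppox (19.99 and 19.6 against 54.2 and 55.9 CPM, -1.47 ± 0.22) and Cpox (118 and 167 against 305 and 387 CPM, -1.28 ± 0.22) fell with Tfrc and the mitochondrial glycine carrier Slc25a38 (-1.27). Steap3, an endosomal reductase of iron taken up with transferrin, rose (287 and 299 against 178 and 184 CPM, 0.70 ± 0.17), a call that was lost in the 4 libraries alone. Iron and haem genes called higher and lower numbered 0 and 5 with the 4 libraries alone, 0 and 0 without LSK CD150+CD48+ replicate 1, 0 and 1 without replicate 2, 6 and 7 without CMP replicate 1 and 2 and 8 without CMP replicate 2. Erythroid genes called higher and lower numbered 1 and 8 with the 4 libraries alone, 0 and 1 without LSK CD150+CD48+ replicate 1, 0 and 5 without replicate 2, 4 and 11 without CMP replicate 1 and 6 and 11 without CMP replicate 2.

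Of 16 azurophil granule genes tested 7 fell and 1 rose, with a median of -1.01. Ctsg (chromosome 14, 56099881 to 56102574), which encodes cathepsin G, was at 10.1 and 8.13 CPM in LSK CD150+CD48+ cells and 265 and 462 CPM in CMPs, 40.2-fold lower (-5.33 ± 0.32, adjusted p = 0.000162). Its LSK CD150+CD48+ values lay beside the 11.4 CPM of HSC, and BL/6 CMPs had 104 and 92.99 CPM. Prtn3, proteinase 3, was at 29.9 and 27.3 against 189 and 282 CPM (-3.04 ± 0.24, adjusted p = 0.000439), Elane, neutrophil elastase, at 7.01 and 4.25 against 27.04 and 30.7 CPM (-2.38 ± 0.39) and Mpo, myeloperoxidase, at 3.16 and 1.15 against 8.39 and 6.03 CPM (-1.81 ± 0.48, adjusted p = 0.0429). Each of these 4 genes was lower in both LSK CD150+CD48+ libraries than in either CMP library, as were 27.9% of all genes tested. Their promoters are those printed above. Ms4a3, a marker of granulocyte and monocyte precursors, fell from 21.1 and 34.5 to 3.16 and 1.58 CPM (-3.59 ± 0.43). Prss57 (-1.35) and Igsf6 (-3.67), the latter at 1 and 3 counts against 20 and 22, were the others that fell. Ctsc, the protease that activates the granule proteases, was the member that rose (23.03 and 26.99 against 12.7 and 14.5 CPM, 0.88 ± 0.24, adjusted p = 0.0459). Calls of Mpo, Prss57 and Ctsc were lost in the 4 libraries alone. Azurophil granule genes called higher and lower numbered 0 and 5 with the 4 libraries alone, 0 and 2 without LSK CD150+CD48+ replicate 1, 0 and 2 without replicate 2, 4 and 10 without CMP replicate 1 and 2 and 9 without CMP replicate 2.

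Of 13 late neutrophil genes tested 4 fell and 1 rose (median -0.34). Hk3, the hexokinase of myeloid cells, was at 3.86 and 1.94 CPM in LSK CD150+CD48+ cells and 100.4 and 93.4 CPM in CMPs (-5.11 ± 0.34, adjusted p = 0.000178). The others that fell were Cxcr2, the receptor that draws neutrophils out of the marrow (4 and 4 counts against 28 and 22), Ncf1, a subunit of the NADPH oxidase (13.3 and 7.27 against 21.1 and 38.2 CPM), and Hp, haptoglobin (5 and 6 counts against 53 and 35). Cyba, another oxidase subunit that many cells express, rose (110.1 and 128 against 64.3 and 75.8 CPM, 0.76 ± 0.19). Calls of Ncf1 and Cyba were lost in the 4 libraries alone. Ltf, Ngp and S100a9, proteins of mature neutrophils named after their values were seen, did not pass, and their counts lay mostly in LSK CD150+CD48+ replicate 2. Ltf had 0 and 5 counts in LSK CD150+CD48+ cells and 0 and 0 in CMPs, Ngp 3 and 71 against 1 and 3, and S100a9 9 and 59 against 6 and 2. Csf3r, the G-CSF receptor of this branch, had 1 and 7 counts in LSK CD150+CD48+ cells against 169 and 198 in CMPs (-5.85 ± 0.53, adjusted p = 0.000711), and 6.35 CPM in HSC. Late neutrophil genes called higher and lower numbered 0 and 3 with the 4 libraries alone, 0 and 1 without LSK CD150+CD48+ replicate 1, 0 and 1 without replicate 2, 1 and 5 without CMP replicate 1 and 1 and 5 without CMP replicate 2.

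Of 16 myeloid transcription factors tested 5 fell and 2 rose (median -0.59). Gfi1, a repressor required for neutrophil differentiation, had 4 and 4 counts in LSK CD150+CD48+ cells and 197 and 134 in CMPs, 50.01-fold lower (-5.64 ± 0.47, adjusted p = 0.000538). Cebpa, the factor needed to leave the CMP stage for the granulocyte and monocyte fate, was at 12.2 and 8.85 against 48.4 and 80.6 CPM (-2.63 ± 0.30, adjusted p = 0.00167), and at 2.38 CPM in HSC. Cebpb, which drives emergency granulopoiesis, was at 22.9 and 16.6 against 41.6 and 50.4 CPM (-1.22 ± 0.25). Spi1 was at 57.6 and 55.6 against 80.00 and 144 CPM (-0.98 ± 0.27, adjusted p = 0.0449) and Irf8, a monocyte and dendritic cell factor, at 36.2 and 30.5 against 51.1 and 64.1 CPM (-0.79 ± 0.21). For Spi1 and Irf8 the test was not passed in the 4 libraries alone. Runx3 (276 and 312 against 106 and 70.8 CPM, 1.73 ± 0.22) and Myb, which keeps progenitors dividing (3437 and 3041 against 2174 and 1859 CPM, 0.68 ± 0.17), rose. The call of Myb was lost in the 4 libraries alone. Myeloid factors called higher and lower numbered 1 and 3 with the 4 libraries alone, 0 and 1 without LSK CD150+CD48+ replicate 1, 0 and 1 without replicate 2, 3 and 7 without CMP replicate 1 and 2 and 5 without CMP replicate 2.

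Of 20 monocyte and dendritic cell genes tested 13 fell and 0 rose, and the median of -2.99 was the lowest of the 20 lists plotted. Ccl9, a chemokine of myeloid cells, was at 5.14 and 3.09 CPM in LSK CD150+CD48+ cells and 199 and 247 CPM in CMPs, 55.3-fold lower (-5.79 ± 0.29, adjusted p = 6.45e-05), and at 3.18 CPM in HSC. Tyrobp, the adaptor DAP12, was at 2.34 and 4.25 against 41.4 and 48.9 CPM (-3.74 ± 0.33, adjusted p = 0.000647). The Fc receptor genes Fcgr3 (0.935 and 1.22 against 12.9 and 25.2 CPM, -4.10 ± 0.45) and Fcer1g (20.1 and 17.3 against 50.4 and 72.4 CPM, -1.72) fell, as did Ms4a6c (6.20 and 5.61 against 32.99 and 54.01 CPM, -2.88 ± 0.31). Whether the CMP gate used the product of Fcgr3 is not known here, so a difference set by the gate cannot be told apart. Ctss, the lysosomal cathepsin S, had 0 counts in either LSK CD150+CD48+ library and 32 and 42 in CMPs, at least 14.8-fold lower against a floor of 3 counts per library. Itgax (CD11c) had 0 counts against 8 and 6, at least 2.79-fold lower. Csf1r, the M-CSF receptor, had 1 and 2 counts against 51 and 36, a ratio of CMPs over LSK CD150+CD48+ cells of 36.8 with a counting interval of 12.2 to 182 (95%). Itgam (CD11b) was at 1.29 and 2.37 against 13.4 and 13.7 CPM (-2.83 ± 0.37), F13a1, a coagulation factor of monocytes, at 1.29 and 1.08 against 11.6 and 10.9 CPM and Zbtb46, a factor of conventional dendritic cells also found in erythroid progenitors, at 9.82 and 12.9 against 28.2 and 31.99 CPM. Ly86 (2 and 0 counts against 17 and 18) and the tetraspanin Cd53 (1.52 and 0.360 against 20.9 and 29.7 CPM, -4.87 ± 0.58, adjusted p = 0.00215) complete the 13. Intervals and floors cover counting error only, since amplified reads without molecular identifiers are not independent molecules. Monocyte and dendritic cell genes called higher and lower numbered 0 and 12 with the 4 libraries alone, 0 and 3 without LSK CD150+CD48+ replicate 1, 0 and 3 without replicate 2, 1 and 13 without CMP replicate 1 and 1 and 14 without CMP replicate 2.

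**Figure D3:**
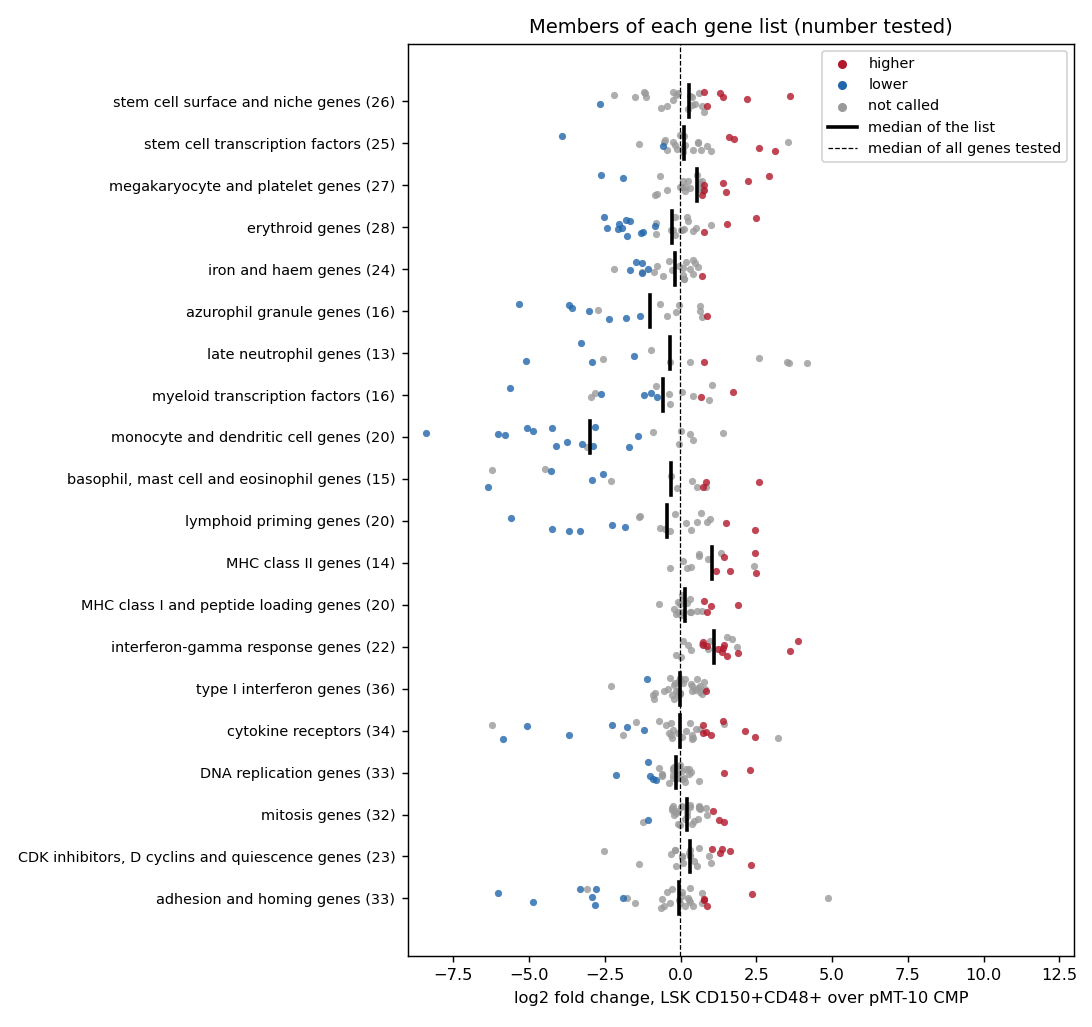
Log2 fold change of LSK CD150+CD48+ cells over pMT-10 CMPs for the tested members of 20 gene lists, 1 point a gene, with red for genes called higher, blue for genes called lower and grey for genes not called. Thick lines are list medians (from -2.99 for monocyte and dendritic cell genes to 1.10 for interferon-γ response genes), and the dashed line is the median of all genes (-0.01).

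Of 15 basophil, mast cell and eosinophil genes tested 4 fell and 3 rose (median -0.31). Mcpt8, a protease made by basophils, had 0 and 5 counts in LSK CD150+CD48+ cells and 158 and 172 in CMPs (-6.35 ± 0.67, adjusted p = 0.00125). Hdc, the histamine-forming enzyme, was at 3.62 and 2.09 against 42.9 and 65.4 CPM (-4.28 ± 0.40, adjusted p = 0.000847), Ms4a2, the beta chain of the IgE receptor, at 20.8 and 12.7 against 85.9 and 168 CPM (-2.93 ± 0.37) and Cpa3, the mast cell carboxypeptidase, at 29.7 and 27.8 against 127 and 212 CPM (-2.56 ± 0.27). For Mcpt8, Hdc and Ms4a2 the HSC library had 0 counts. The pMT-10 CMP values were several times those of BL/6 CMPs (8.50 and 5.41 CPM for Hdc, 8.50 and 10.8 CPM for Ms4a2), which are on the other chip. Csf2rb and Csf2rb2, near-identical beta chains of IL-3 receptors whose reads may be shared, rose beside Gata2, a regulator of this branch (194 and 146 against 87.7 and 102 CPM and 235 and 176 against 120.3 and 125 CPM). Their calls were lost in the 4 libraries alone. Genes of the list called higher and lower numbered 1 and 5 with the 4 libraries alone, 1 and 2 without LSK CD150+CD48+ replicate 1, 1 and 2 without replicate 2, 3 and 5 without CMP replicate 1 and 4 and 5 without CMP replicate 2.

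Of 20 lymphoid priming genes tested 6 fell and 2 rose (median -0.43). Dntt, the terminal transferase of early lymphoid progenitors, had 0 and 8 counts against 99 and 207 in CMPs (-5.60 ± 0.70, adjusted p = 0.00266). Flt3, the cytokine receptor of lymphoid-primed progenitors, had 3 and 20 counts against 160 and 66 (-3.68 ± 0.59, adjusted p = 0.00596), near the 1.06 CPM of HSC. Satb1, a chromatin organiser of the lymphoid fate, was at 6.08 and 4.89 against 29.9 and 22.8 CPM (-2.27 ± 0.28), and Tcf7, a factor of early T cells, had 0 and 6 counts against 33 and 55. The kinase Lck (8 and 15 counts against 30 and 35) fell by 1.85 and lost its call in the 4 libraries alone. Ikzf1, the factor Ikaros (218 and 184 against 98.5 and 42.2 CPM, 1.51 ± 0.34), and Il2rg, the common gamma chain (6.43 and 6.12 against 1.10 and 1.16 CPM, 2.46 ± 0.44), rose. The call of Ikzf1 was lost in the 4 libraries alone. Il2rg is X-linked, so for it the sex of the cells and the population cannot be told apart. Lymphoid priming genes called higher and lower numbered 1 and 5 with the 4 libraries alone, 0 and 1 without LSK CD150+CD48+ replicate 1, 0 and 2 without replicate 2, 4 and 9 without CMP replicate 1 and 4 and 6 without CMP replicate 2.

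Cytokine receptors moved in both directions, 7 higher and 6 lower of 34 tested, with a median of -0.02. The receptor genes that fell were Csf3r, Csf1r and Flt3, already given, Il10ra, Il1r1 (-1.78) and Il4ra (19.4 and 19.3 against 52.7 and 36.3 CPM). Those that rose included the X-linked Il2rg, Csf2rb, Csf2rb2, Tgfbr2 (48.04 and 48.7 against 21.7 and 26.9 CPM, 0.99 ± 0.22), Il27ra (4.79 and 5.61 against 1.54 and 0.811 CPM, 2.13 ± 0.48) and Il11ra1 (81.5 and 73.7 against 46.5 and 46.4 CPM). Calls of Il1r1, Csf2rb, Csf2rb2, Tgfbr2, Il27ra and Il11ra1 were lost in the 4 libraries alone. Il10ra, the ligand-binding chain of the IL-10 receptor, was at 2.69 and 2.88 CPM in LSK CD150+CD48+ cells and 18.8 and 8.35 CPM in CMPs (-2.28 ± 0.42, adjusted p = 0.0119), and at 3.44 CPM in HSC. Its partner chain Il10rb was at 281 and 257 against 150.1 and 47.6 CPM and did not pass (1.45 ± 0.41, adjusted p = 0.0514). Il10 itself had 0 and 2 counts in LSK CD150+CD48+ cells and 0 and 0 in CMPs, under the floor of 3 counts, so a difference was not detectable at this depth. Csf2ra, the GM-CSF receptor alpha chain, overlapped (44.4 and 60.2 against 51.3 and 60.4 CPM). Among 21 JAK, STAT and SOCS genes tested Stat5b, which transmits erythropoietin and IL-3 signals, was the only one called (183 and 199.9 against 105 and 112 CPM, 0.82 ± 0.17), and its call was lost in the 4 libraries alone. Receptor genes called higher and lower numbered 2 and 5 with the 4 libraries alone, 0 and 1 without LSK CD150+CD48+ replicate 1, 0 and 1 without replicate 2, 8 and 11 without CMP replicate 1 and 11 and 8 without CMP replicate 2.

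Of 14 MHC class II genes tested 5 rose and 0 fell (median 1.03). Cd74, the invariant chain, was at 1361 and 889 CPM in LSK CD150+CD48+ cells and 164 and 242 CPM in CMPs (2.47 ± 0.30, adjusted p = 0.00217). H2-Eb1 stood at 952 and 595 against 206 and 288 CPM (1.64 ± 0.26) and H2-Aa at 375 and 350.3 against 93.2 and 175 CPM (adjusted p = 0.0381), the 2 class II chains whose promoters are printed above. H2-DMb2, a chain of the peptide-exchange factor, was at 27.1 and 21.01 against 3.20 and 5.45 CPM (2.47 ± 0.49), and H2-Oa, its inhibitor, at 69.8 and 61.5 against 27.5 and 31.1 CPM (1.16 ± 0.20). The HSC library had 2102 CPM of Cd74 and BL/6 CMPs, on the same second chip, 0.462 and 1.05 CPM. Ciita, the master regulator of class II transcription, was at 151 and 96.3 against 49.8 and 48.2 CPM (1.33 ± 0.39) and narrowly missed the threshold (adjusted p = 0.0535). H2-Ab1 was at 375 and 337 against 111 and 269.9 CPM (adjusted p = 0.133). Class II genes called higher and lower numbered 6 and 0 with the 4 libraries alone, 0 and 0 without LSK CD150+CD48+ replicate 1, 2 and 0 without replicate 2, 6 and 1 without CMP replicate 1 and 8 and 0 without CMP replicate 2.

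Of 20 class I and peptide loading genes 4 rose and 0 fell (median 0.13). Tapbp (tapasin), which loads peptides on class I, was at 1449 and 1246 against 695 and 640.2 CPM (1.01 ± 0.18), and H2-K1 at 4557 and 4847 against 2635 and 2912 CPM (0.76 ± 0.17). H2-T22 (1.90) and H2-Q7 (0.88) have close copies that may share reads. With the 4 libraries alone Tapbp was the 1 of these 4 that was still called. Class I genes called higher and lower numbered 1 and 0 with the 4 libraries alone, 0 and 0 without LSK CD150+CD48+ replicate 1, 0 and 0 without replicate 2, 6 and 5 without CMP replicate 1 and 7 and 0 without CMP replicate 2.

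Of 22 interferon-γ response genes tested 11 rose and 0 fell, with a median of 1.10, against 5.92% of all genes called higher. The 25 measured genes of the list summed to 5924 and 5252 CPM in LSK CD150+CD48+ cells and 2776 and 2148 CPM in CMPs. On the second chip, the HSC library had a higher sum, 7392 CPM, and BL/6 CMPs had 516 and 526 CPM. Serpina3g, a serine protease inhibitor, was at 2198 and 1924 against 818 and 613 CPM (1.53 ± 0.20, adjusted p = 0.00302), and Gbp5, a guanylate-binding protein, at 167 and 160.2 against 68.7 and 51.2 CPM (1.45 ± 0.20). Casp4, the inflammatory caspase-11 that senses lipopolysaccharide, was at 31.3 and 25.04 against 3.09 and 0.695 CPM (3.87 ± 0.52, adjusted p = 0.00318). The transcription factor Irf1 was at 661 and 585 against 419.99 and 331 CPM and Zbp1, a nucleic acid sensor, at 121 and 106 against 61.6 and 62.7 CPM. Gbp4 (1.90), Gbp7 (1.24), Irgm1 (0.73), Serpina3f (1.36) and the chemokine Cxcl10 (1.39) also rose, and the eleventh was Ly6a, whose product was used for the sort. Calls of Irf1, Zbp1, Gbp7, Irgm1 and Cxcl10 were lost in the 4 libraries alone. The Gbp and Serpina3 genes are families of close copies. The interferon-γ receptor chains Ifngr1 (348 and 474 against 178 and 354 CPM) and Ifngr2 (17.8 and 21.2 against 20.7 and 43.3 CPM) overlapped and did not pass. Of 36 type I interferon genes 1 rose and 1 fell (median -0.03): Dtx3l (0.84) and Oasl1 (-1.12), both lost in the 4 libraries alone. Type I genes called higher and lower numbered 0 and 0 with the 4 libraries alone, 0 and 0 without LSK CD150+CD48+ replicate 1, 0 and 0 without replicate 2, 6 and 4 without CMP replicate 1 and 3 and 4 without CMP replicate 2. Interferon-γ genes called higher and lower numbered 6 and 0 with the 4 libraries alone, 0 and 0 without LSK CD150+CD48+ replicate 1, 1 and 0 without replicate 2, 14 and 0 without CMP replicate 1 and 14 and 0 without CMP replicate 2.

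**Figure D4:**
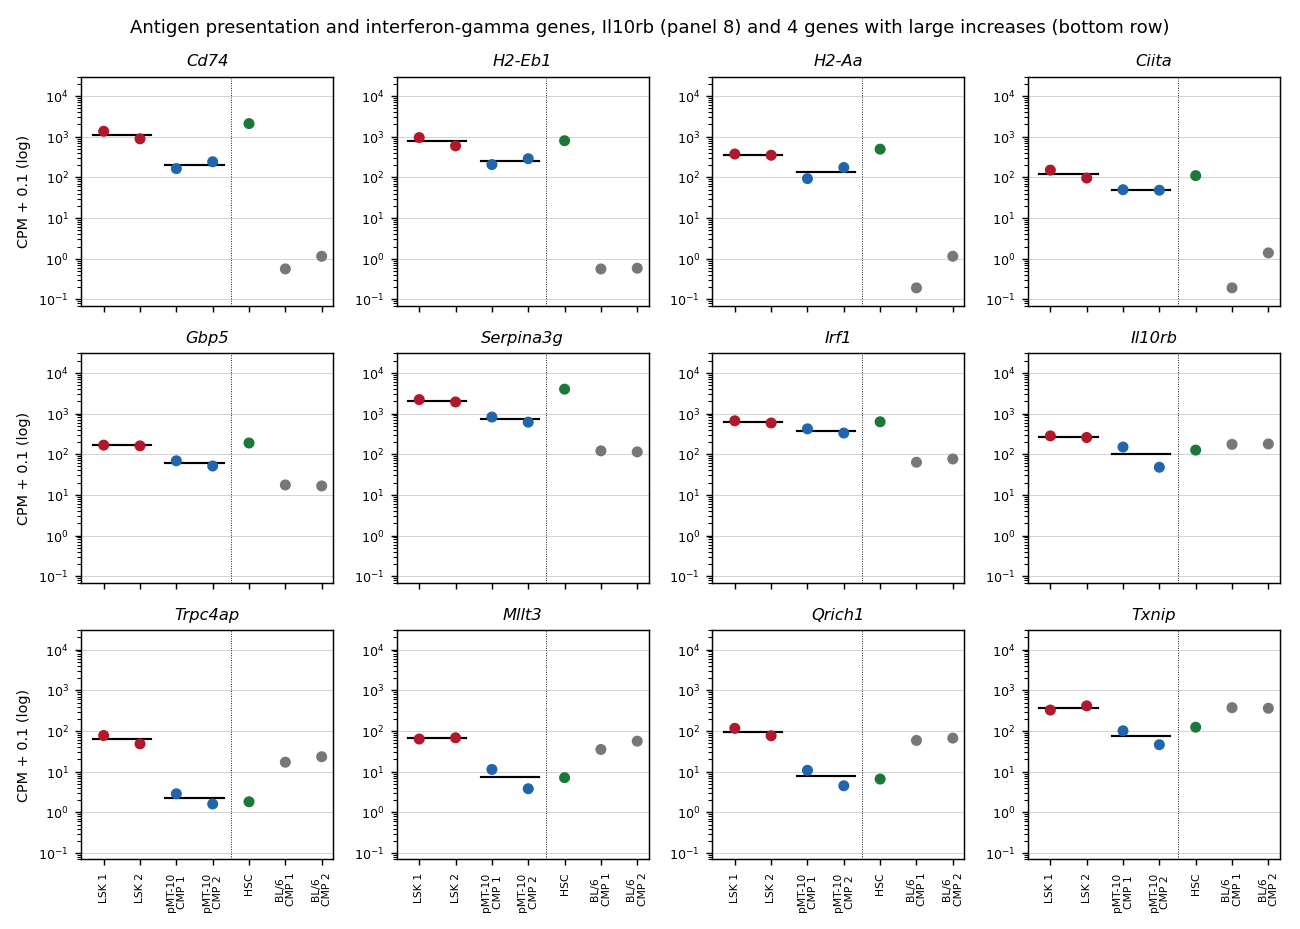
CPM plus 0.1 on a log axis in each of the 7 libraries for antigen presentation and interferon-γ genes, the IL-10 receptor chain Il10rb and, in the bottom row, 4 genes with large increases; colours and lines are as in the plot of lineage genes by library. Cd74, H2-Eb1, H2-Aa and Ciita are near 0 in BL/6 CMPs and higher in LSK CD150+CD48+ cells than in pMT-10 CMPs, while Trpc4ap, Mllt3 and Qrich1 are lower in pMT-10 CMPs and HSC than in BL/6 CMPs.

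Of 33 DNA replication genes 5 fell and 2 rose (median -0.14), beside 5.92% of all genes called in each direction. Ccne1, the cyclin of entry into S phase, was at 20.2 and 12.7 CPM in LSK CD150+CD48+ cells and 88.5 and 55.2 CPM in CMPs (-2.13 ± 0.31, adjusted p = 0.00411), and Ccne2 was at -1.01. The licensing genes Cdc6 (85.5 and 69.3 against 142 and 148 CPM) and Orc1 (7.95 and 7.70 against 14.7 and 18.7 CPM) and the ribonucleotide reductase Rrm1 (396 and 349.7 against 619.9 and 683 CPM) fell too. Tyms, thymidylate synthase (62.5 and 109 against 36.6 and 26.4 CPM, 1.45 ± 0.28), and Gins2 (12.2 and 8.92 against 3.31 and 0.927 CPM, 2.29 ± 0.56) rose. Of these 7, Ccne2, Cdc6, Orc1, Rrm1 and Gins2 lost their call in the 4 libraries alone. Replication genes called higher and lower numbered 1 and 1 with the 4 libraries alone, 0 and 0 without LSK CD150+CD48+ replicate 1, 0 and 0 without replicate 2, 3 and 9 without CMP replicate 1 and 2 and 8 without CMP replicate 2. Of 32 mitosis genes 3 rose and 1 fell (median 0.21), to be read beside the same 5.92% in each direction. Ccna2, cyclin A, was at 680.3 and 589 against 355 and 250.4 CPM (1.07 ± 0.21), Ube2c, a ubiquitin enzyme of mitotic exit, at 270.5 and 334 against 126 and 96.6 CPM (1.44 ± 0.20) and the spindle gene Nusap1 at 58.6 and 51.7 against 27.7 and 17.6 CPM (1.28 ± 0.25). Cenpa, the centromere histone, fell (108 and 158 against 249.7 and 308 CPM, -1.06 ± 0.22). Mki67 did not pass (108 and 173 against 105 and 80.7 CPM, adjusted p = 0.142), nor did Ccnd1, Ccnd2, Ccnd3 and Cdk6. Mitosis genes called higher and lower numbered 3 and 1 with the 4 libraries alone, 0 and 0 without LSK CD150+CD48+ replicate 1, 0 and 0 without replicate 2, 10 and 3 without CMP replicate 1 and 6 and 2 without CMP replicate 2.

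Of 23 CDK inhibitor, D cyclin and quiescence genes 5 rose and 0 fell (median 0.31). Txnip, an inhibitor of glucose uptake and growth, was at 327 and 414 against 101 and 45.9 CPM (2.34 ± 0.33, adjusted p = 0.00389) and Btg1, an antiproliferative gene, at 87.4 and 81.2 against 33.3 and 21.1 CPM (1.63 ± 0.25). Cdkn2d (p19) was at 112 and 80.7 against 38.6 and 36.5 CPM (1.35 ± 0.21), Cdkn1a (p21) at 18.2 and 15.5 against 7.83 and 5.80 CPM (1.30 ± 0.28) and Cdkn1b (p27) at 19.9 and 18.4 against 8.61 and 10.2 CPM (adjusted p = 0.0359). Calls of Cdkn1a and Cdkn1b were lost in the 4 libraries alone. For Txnip the LSK CD150+CD48+ values were close to those of BL/6 CMPs (375 and 362 CPM). Genes of this list called higher and lower numbered 3 and 0 with the 4 libraries alone, 0 and 0 without LSK CD150+CD48+ replicate 1, 1 and 0 without replicate 2, 7 and 3 without CMP replicate 1 and 8 and 0 without CMP replicate 2.

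Adhesion and homing genes moved both ways, 4 higher and 7 lower of 33 tested (median -0.07). Itgb7, a beta chain of mucosal homing integrins that partners the alpha 4 chain, was at 115 and 109.6 CPM in LSK CD150+CD48+ cells and 22.8 and 20.9 CPM in CMPs (2.36 ± 0.21, adjusted p = 0.000601), tight within each pair and 19.99 CPM in HSC. Itga6, a laminin receptor chain, was at 343 and 288 against 163 and 184 CPM (0.86 ± 0.18) and Itgb2 at 104 and 105 against 64.9 and 58.9 CPM (0.76 ± 0.18). These last values, and Cd9, were not called in the 4 libraries alone. The members that fell included Itgam, Itgax, Selp, Cxcr2 and Cd53, with values given above, and Itgb5 (-2.78). The call of Itgb5 was also lost in the 4 libraries alone. Adhesion genes called higher and lower numbered 1 and 5 with the 4 libraries alone, 1 and 2 without LSK CD150+CD48+ replicate 1, 1 and 2 without replicate 2, 6 and 10 without CMP replicate 1 and 9 and 13 without CMP replicate 2.

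The 12 largest decreases, chosen by size, included, outside the lists, Tmem56 (1.64 and 3.17 against 54.6 and 41.6 CPM, -4.27 ± 0.36), a membrane protein, Plppr3, of the phospholipid phosphatase-related family (6.55 and 5.25 against 81.9 and 68.5 CPM, -3.68 ± 0.25), and Atp8b4, a P4-type ATPase (1.64 and 2.01 against 35.1 and 20.5 CPM, -3.90 ± 0.37). The 12 largest increases had another makeup, with Ly6a and Casp4 beside genes that many cell types express. Trpc4ap, an adaptor of a ubiquitin ligase, was at 77.4 and 48.1 CPM in LSK CD150+CD48+ cells and 2.76 and 1.51 CPM in CMPs (4.86 ± 0.40, adjusted p = 0.000538). Its level was 1.72 CPM in HSC and 16.99 and 23.2 CPM in BL/6 CMPs. Pfdn5, a prefoldin chaperone subunit, was at 233 and 190.3 against 27.7 and 5.68 CPM, Gtf2i, a general transcription factor, at 230.1 and 144 against 22.3 and 8.69 CPM and Qrich1 at 116 and 76.3 against 10.7 and 4.40 CPM. The kinase Chuk (IKK alpha), Tmem263, Aldh9a1, Dok1, Copb1 and Dennd5a rose by 3.68, 4.09, 3.45, 3.31, 3.30 and 3.20 on the log2 scale. In 11 of the 12, Ly6a being the exception, CMP replicate 2 was lower than CMP replicate 1, the HSC library was below both LSK CD150+CD48+ libraries and BL/6 CMPs were above both pMT-10 CMP libraries. Over all genes called higher CMP replicate 1 exceeded replicate 2 in 68.4%, against 49.1% of genes tested and 42.2% of genes called lower. The part of library differences in these increases was not tested. Positions of the amplicons were not known here, so a splice form or sequence variant at the amplicon cannot be told apart from the level of the gene.

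Lists of markers of other cells were summed in each library. Of 22 T and NK cell genes 5 could be tested, and 7, among them Cd3d and Cd8a, had 0 counts in all 4 libraries. The T and NK list summed to 21.2 and 18.3 CPM in LSK CD150+CD48+ cells and 35.8 and 41.8 CPM in CMPs, and 2 of its genes were lower, Thy1 (3.16 and 3.89 against 9.38 and 13.3 CPM) and Lck. The B and plasma cell list summed to 19.3 and 19.7 against 15.6 and 24.1 CPM, with 2 of its 15 measured genes tested and 0 called, and the macrophage list to 22.9 and 30.3 against 35.6 and 43.1 CPM, with 3 of 15 tested and 0 called and with Adgre1 (F4/80) and C1qc at 0 counts in all 4. For the stroma and endothelium list the sums were 184 and 171 against 209.6 and 257 CPM, with 9 of 15 tested and 0 called, and Col1a1 and Cdh5 at 0 counts in all 4. The neutrophil proteins Ngp and S100a9, given above, also mark cells outside both gates. The part of other cells in the results was not tested. In sorted bulk samples fewer cells of a kind and less RNA per cell cannot be told apart, which bears on every lineage gene above.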

How the data were processed

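RNA of sorted bone marrow cells was measured with Ion AmpliSeq Transcriptome Mouse libraries, 1 amplicon per gene, per the labels' protocols. The values are raw read counts per gene that the authors deposited, with a table for each chip, on mm10 per the submitters' processing notes (aligner and counter: not given in the sources used here). Tables held 23930 genes. Columns were matched to samples by barcode and table.

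The analysis used edgeR 4.0.16 (R 4.3.3): filterByExpr (minimum count 10) left 11429 genes, TMM scaling, 1 mean per group over all 7 libraries (3 residual degrees of freedom), a robust quasi-likelihood F-test of LSK CD150+CD48+ minus pMT-10 CMPs and Benjamini-Hochberg adjustment over all tested genes. An adjusted p under 0.05 is a call, every adjusted p of a gene comes from this test, and ± after a log2 fold change is its SE. Gene lists (32, with 837 of 887 entries in the tables) and the comparison were chosen with earlier results of these data known. Named genes are the 12 largest increases and decreases among calls with 20 CPM in the higher group and no overlap, up to 4 calls per list and direction, and a fixed set of lineage, receptor and cycle genes; 43 more, and Ltf, Ngp and S100a9, were named after their values were seen. Some genes these rules pick are not reported here. Positions are GENCODE M21 genes; promoters are RefSeq's (8730 of 11429 genes matched by symbol). Alternatives were RLE, total counts, DESeq2 1.42.0, limma-voom 3.58.1, other filters, thinning, a fold threshold, a replicate block, fewer libraries and no X- or Y-linked genes, the last chosen after seeing the data.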

Additional observations from a re-analysis of the deposited data

How the results depend on the processing

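No gene named here that passed the test turned its direction in any of the 18 alternatives run, but the calls depend on which libraries set the spread. Against 1354 genes called (677 higher, 677 lower), no filter on low counts gave 2237 (1174 and 1063), the 4 compared libraries alone 595 (272 and 323, of which 591 are among the 1354), and a threshold of 1.5-fold with glmTreat 381 (177 and 204). Leaving out 1 library of a compared group gave 44 to 4274 calls (13 to 2190 higher, 31 to 2084 lower), with the lone library assumed to vary like the other groups; 44 and 96 came without LSK CD150+CD48+ replicate 1 and replicate 2, 4274 and 2705 without CMP replicate 1 and replicate 2. Without BL/6 replicate 1 or 2 the count was 591 each (295 and 296, or 297 and 294), and the cause of these moves was not tested. RLE, total counts, DESeq2, limma-voom, a minimum count of 50, thinning and the set without X- and Y-linked genes gave 1205 to 1772; total counts shifted the balance to 611 higher and 761 lower. Of 172 named calls, 109 were kept with the 4 libraries alone, 20 and 37 without LSK CD150+CD48+ replicate 1 and 2, and 172 and 169 without CMP replicate 1 and 2. Among those kept in every alternative were Ccl9, Csf3r, Ctsg, Gata2, Gfi1, Hdc, Hk3, Itgb7, Mcpt8, Prtn3, Slamf1, Trpc4ap and Tyrobp. The labels state no pairing of samples by replicate number. The correlation of same-numbered deviations was -0.02, a value that cannot show whether samples were paired. With the replicate block 1203 genes were called in all libraries, and 800 (410 higher, 390 lower) with the replicate block in the 4 libraries alone. Signs turned only for uncalled genes: Klf1 was at -0.035 with total counts and -0.052 after thinning. With 1 library left out, the log2 fold change ran from -0.24 to 0.31 for Klf1, -0.54 to 0.065 for Kit, -0.62 to 0.22 for Cd48, -0.067 to 0.56 for Gata1, -0.19 to 0.36 for Itga2b, -0.33 to 0.11 for Csf2ra, -0.45 to 0.21 for Cdk6, -0.11 to 0.24 for Epor and -0.048 to 0.31 for Car1. Counts of 3 in a library correspond to 0.216 to 0.351 CPM in the 4 libraries, which limits genes such as Itgax and Csf1r.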

Other observations

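The counts of the gene groups that follow are to be read against the 5.92% of all genes called in each direction. Of 21 replication-dependent histone genes tested 4 rose and 0 fell (median 0.41), among them Hist4h4 (503 and 567 CPM in LSK CD150+CD48+ cells against 300.4 and 200.2 CPM in CMPs, 1.10 ± 0.25) and Hist1h2bm (518 and 439 against 225 and 250.01 CPM, 1.01 ± 0.24), which belong to families of close copies. Of 23 glycolysis genes Gpi1 (772 and 715 against 372 and 315 CPM, 1.12 ± 0.18) and Ldha (1972 and 2039 against 1417 and 1066 CPM, 0.69 ± 0.19) rose, and Hk3 and the erythroid pyruvate kinase gene Pklr (121 and 147 against 433 and 457 CPM, -1.73 ± 0.18, adjusted p = 0.00125) fell. Of 13 BCL-2 family genes 2 rose, Mcl1, a survival factor of stem and progenitor cells (138 and 127 against 81.5 and 46.7 CPM, 1.04 ± 0.26), and Bnip3, a mitophagy receptor (11.7 and 7.63 against 0.772 and 0.695 CPM, 3.69 ± 0.57). Of 28 DNA methylation and Polycomb genes 2 rose, the maintenance methyltransferase Dnmt1 (608 and 495 against 370.2 and 228 CPM, 0.88 ± 0.24) and Pcgf2 (59.9 and 51.2 against 29.1 and 11.01 CPM, 1.46 ± 0.38). With LSK CD150+CD48+ replicate 1 or replicate 2 left out, 0 genes of the histone, BCL-2 and DNA methylation and Polycomb lists were called. Calls of Ldha, Mcl1, Dnmt1 and Pcgf2 were lost in the 4 libraries alone. Glycolysis genes called higher and lower numbered 1 and 2 with the 4 libraries alone, 0 and 1 without LSK CD150+CD48+ replicate 1, 0 and 2 without replicate 2, 6 and 7 without CMP replicate 1 and 4 and 3 without CMP replicate 2. Without CMP replicate 1 the histone list had 9 and 0 called, the BCL-2 list 2 and 3, and the DNA methylation and Polycomb list 5 and 5. Without CMP replicate 2 they had 8 and 0, 4 and 0, and 3 and 3.

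Of 69 oxidative phosphorylation genes 6 fell and 2 rose (median -0.25). Uqcrq (94.7 and 141 against 211 and 339 CPM, -1.22 ± 0.26) and Atp5o (242 and 292 against 431 and 691 CPM, -1.07 ± 0.24) fell, and Ndufv3 (113 and 117 against 36.5 and 12.2 CPM, 2.24 ± 0.42) rose. Oxidative phosphorylation genes called higher and lower numbered 2 and 2 with the 4 libraries alone, 0 and 0 without LSK CD150+CD48+ replicate 1, 0 and 0 without replicate 2, 16 and 22 without CMP replicate 1 and 4 and 18 without CMP replicate 2. Of 21 cytosolic ribosomal protein genes 3 fell and 0 rose (median -0.35), with Rps4x at 10.1 and 9.43 against 39.6 and 44.4 CPM (-2.11 ± 0.24). Rps4x is X-linked. Ribosomal genes called higher and lower numbered 0 and 1 with the 4 libraries alone, 0 and 0 without LSK CD150+CD48+ replicate 1, 0 and 0 without replicate 2, 3 and 6 without CMP replicate 1 and 1 and 7 without CMP replicate 2. Of 22 immediate early and heat shock genes 1 rose, Hspa1b (4.09 and 11.2 against 2.21 and 0.580 CPM, 2.46 ± 0.65), a gene that handling of cells can induce, and its call was lost in the 4 libraries alone. The zinc-responsive metallothionein gene Mt1 stood at 433 and 532 CPM in LSK CD150+CD48+ cells and 712 and 727 CPM in CMPs and did not pass (adjusted p = 0.0662).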
